A study of Homo sapiens with 16 samples.

Results

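HEK-293T, an established line of human embryonic kidney origin, was compared in its control state with HT-1080, an established line from a human fibrosarcoma. The 6 libraries compared were the 3 short-read RNA-seq libraries of each line that had received a negative control siRNA (siNegative), out of 16 samples in the series. The cells had been transfected with 20 nM siRNA, and RNA was taken 48 h later from cultures that the labels call biological replicates. Every library of both lines therefore shares the transfection, and no untransfected cells were measured. The labels give no genetic change made for the study in either line. HEK-293T was grown in DMEM and HT-1080 in EMEM. The other samples were the 3 libraries per line with an siRNA against HNRNPH1 (siHNRNPH1), a splicing regulator, and 4 long-read (IsoSeq) pools. Genes of chromosomes X and Y were left out throughout.

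HEK-293T cells come from a culture of embryonic kidney transformed with adenovirus DNA, and also make the large T antigen of SV40, which binds the p53 and retinoblastoma proteins. HT-1080 cells come from a connective tissue tumour and are widely used to study invasion, pericellular proteolysis and oncogenic RAS signalling. Mesenchymal cells are defined by the intermediate filament vimentin, by secreted matrix and by matrix-binding integrins, whereas epithelial cells are defined by E-cadherin junctions and simple keratins.

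The line, the deposited table, the medium and the sequencing depth cannot be told apart: total expected counts were 111.1 to 121.0 M (mega) in HEK-293T and 27.3 to 30.3 M in HT-1080. Levels are given as CPM, the count per M counts of the library after edgeR's TMM scaling (trimmed mean of M-values), and fold changes as log2 of HT-1080 over HEK-293T. Across genes, the log2 CPM of libraries of 1 line correlated with a Pearson r of 0.9995 in HEK-293T and of 0.9971 to 0.9987 in HT-1080, where replicate 2 stood slightly apart. Between the lines r was 0.81. These values are across genes, which are not independent replicates. A gene at 0 counts in all libraries of a line was set to 3 counts over that line, which is 0.00789 CPM in HEK-293T and 0.0374 CPM in HT-1080, and its fold is then a lower bound. Where a line held 1 to 3 counts, the ratio is given with its 95% counting interval, which covers counting error only. RNA per cell and the share of cells with a transcript cannot be told apart in these bulk samples.

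Most genes differed between the lines. Of 16517 genes tested on the autosomes and the mitochondrial genome, 14588 (88.3%) had a Benjamini-Hochberg (BH) adjusted p under 0.05 in edgeR's quasi-likelihood test. Of these, 6965 (42.2% of those tested) were higher in HT-1080 and 7623 (46.2%) in HEK-293T. At least a 2-fold difference was called for 8477 genes (51.3%), 4078 (24.7%) higher in HT-1080 and 4399 (26.6%) higher in HEK-293T. At least a 4-fold difference was called for 5048 (30.6%), 2411 (14.6%) and 2637 (16%) by line. The groups of 3 libraries did not overlap for 14783 genes (89.5%). A call alone therefore says little here, and gene groups are described by their 2-fold counts beside the 24.7% and 26.6% of all tested genes. The median log2 fold change of all tested genes was -0.08, and scaling by library size alone moved it to -0.33, so that the directions below are relative to the bulk of genes. The members of a list that passed the filter on low counts include genes that passed through 1 line only, so each count is a description.

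The genes farthest apart were on in 1 line and at or near 0 counts in the other. Among genes of at least 20 CPM, 24 were at 0 counts in HEK-293T and 35 at 0 in HT-1080. KRT81, a hair keratin, stood at 2832, 3451 and 2842 CPM in the HT-1080 libraries and at 0 in HEK-293T, at least 385000-fold higher. RSEM divides reads between KRT81 and its near copies KRT83 and KRT86, so its level is uncertain. IL1B, which encodes the cytokine interleukin-1 beta, stood at 928, 950.1 and 922 CPM against 0, at least 118000-fold higher in HT-1080. Others at the top of the HT-1080 side included S100A6, TM4SF1, HSD11B1, TLR4, AJAP1, SNRPN and ANKRD20A19P. HSD11B1 regenerates active glucocorticoid and was at 121, 124 and 114 CPM in HT-1080, at least 15200-fold higher. TLR4, the receptor for bacterial lipopolysaccharide, was at 97.99, 78.9 and 93.9 CPM, at least 11400-fold higher. ANKRD20A19P is a pseudogene of a repeated family, so its counts are uncertain.

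On the HEK-293T side, the 10 genes at the top were all at 0 counts in HT-1080. Their order is by edgeR's log2 fold change, by which genes at 0 counts ranked highest here. NEFM, described below, had a higher CPM in HEK-293T with counts near 0 in HT-1080, and fell outside these 10. UCHL1, a deubiquitinase abundant in neurons, led with 156, 157 and 159 CPM, at least 4210-fold higher in HEK-293T. SLITRK5, a neuronal membrane protein, was at 96.03, 93.3 and 94.4 CPM (at least 2530-fold), and the ephrin receptor EPHA7 at 88.1, 90.2 and 89.4 CPM (at least 2390-fold). UCP2, a carrier of the inner mitochondrial membrane, was at 83.8, 84.5 and 84.6 CPM (at least 2250-fold). The zinc finger factor SALL2 was at 68.9, 70.8 and 69.97 CPM (at least 1870-fold), and the axonal motor KIF1A at 62.98, 61.9 and 58.9 CPM (at least 1640-fold). MTARC1, PDE3B, PNMA8A and the lysosomal protease gene CTSC completed the group, at 0 in HT-1080 and at least 1500-fold to 2170-fold higher in HEK-293T.

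**Figure D1:**
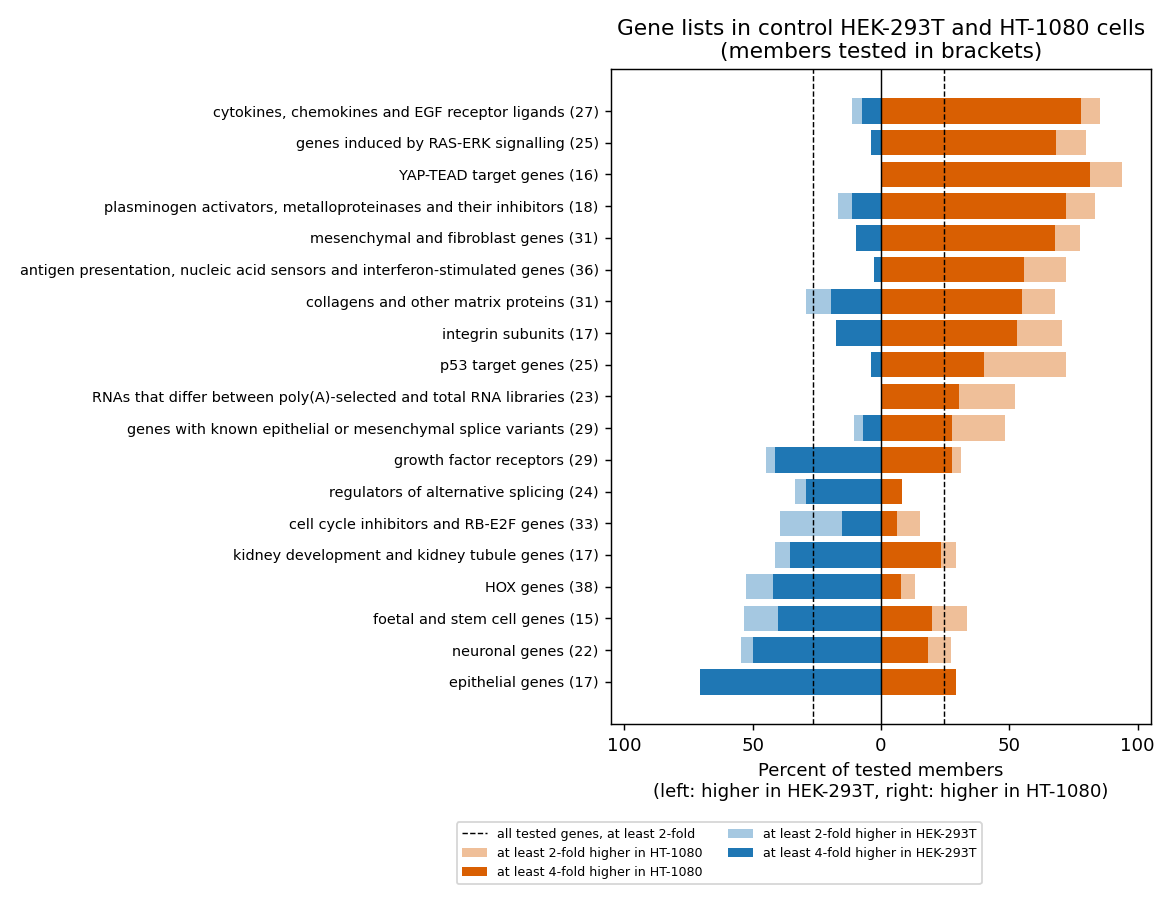
Share of the tested members of each gene list that were at least 2-fold (pale) or 4-fold (dark) higher and called by edgeR, to the right for HT-1080 and to the left for HEK-293T, for lists with at least 15 tested members. Dashed lines mark the shares of all tested genes, 24.7% and 26.6%. The YAP-TEAD, cytokine and RAS-ERK lists lie mostly to the right, and the epithelial, neuronal and HOX lists mostly to the left.

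Mesenchymal genes were mostly higher in HT-1080. Of 33 listed genes 31 were tested, 24 were at least 2-fold higher in HT-1080 and 3 in HEK-293T, and the median log2 fold change was 3.46. Vimentin (VIM) was at 267, 274 and 264 CPM in HEK-293T and 4543, 4790 and 4542 CPM in HT-1080, a log2 fold change of 4.11 (SE 0.052) with an edgeR BH-adjusted p = 2.56e-12. It was thus measured in both lines, with no overlap. The hyaluronan receptor CD44 was at 1.51, 1.73 and 1.39 CPM in HEK-293T against 3408, 3163 and 3382 CPM in HT-1080, a log2 fold change of 11.07 (SE 0.096, edgeR BH-adjusted p = 6.05e-13). LGALS1, which encodes galectin-1, went from 0.664, 0.656 and 0.608 CPM to 632, 819 and 635 CPM, a log2 fold change of 10.08 (SE 0.15, edgeR BH-adjusted p = 5.29e-12). S100A6, a calcium-binding protein of motile cells, held 1 count over the HEK-293T libraries and 405, 521 and 406 CPM in HT-1080, a ratio of 168600 (counting interval 30300 to 6670000). ENG, a TGF-beta co-receptor, and TGFBI, a TGF-beta-induced matrix protein, had log2 fold changes of 12.09 (SE 0.15) and 12.002 (SE 0.15). CAV1, the coat protein of caveolae, had a log2 fold change of 5.54 (SE 0.049) and fibronectin (FN1) 4.05 (SE 0.095).

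Some mesenchymal and matrix genes were low in HT-1080. The 3 members of the mesenchymal list at least 2-fold higher in HEK-293T were PRRX1, TAGLN and PDGFRA. THY1 and DCN were below the filter in both lines, COL1A2 likewise, and FAP was at 0 in both. PRRX1, a homeobox factor of limb and connective tissue mesenchyme, was at 0 in HT-1080 and at 4.86, 5.59 and 5.19 CPM in HEK-293T, at least 139-fold higher there. TAGLN, an actin-binding protein of smooth muscle, was also higher in HEK-293T, at 4.79, 4.85 and 5.63 CPM against 0.981, 1.24 and 0.971 CPM, a log2 fold change of -2.25 (SE 0.14, edgeR BH-adjusted p = 1.6e-07). PDGFRA, a growth factor receptor of fibroblasts, had a log2 fold change of -4.92 (SE 0.36). ACTA2, the smooth muscle actin, was in contrast higher in HT-1080, at 2.499, 2.21 and 2.37 CPM in HEK-293T against 16.9, 18.3 and 17.3 CPM, a log2 fold change of 2.89 (SE 0.074, edgeR BH-adjusted p = 1.97e-10). The mesenchymal cadherin CDH11 was also higher in HT-1080, with a log2 fold change of 8.34 (SE 0.084). ZEB1, a factor that represses E-cadherin, differed little, at 44.1 CPM ± 0.566 (SD, n = 3) in HEK-293T and 60.6 CPM ± 6.71 (SD, n = 3) in HT-1080, a log2 fold change of 0.46 (SE 0.071, edgeR BH-adjusted p = 0.000172). That call was lost when all 12 short-read libraries shared 1 estimate of the spread, with an edgeR BH-adjusted p = 0.272.

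Matrix genes were called in both directions. Of 35 listed 31 were tested, 21 were at least 2-fold higher in HT-1080 and 9 in HEK-293T, with a median log2 fold change of 2.30. COL6A3, a chain of type VI collagen, was at 0.0328, 0.118 and 0.0228 CPM in HEK-293T and 1640, 1275 and 1615 CPM in HT-1080, a log2 fold change of 14.63 (SE 0.23, edgeR BH-adjusted p = 8.73e-12). LAMB3, a laminin chain of epithelial basement membrane, was at 0.0738, 0.126 and 0.0911 CPM against 1987, 2002 and 1930 CPM, a log2 fold change of 14.28 (SE 0.10, edgeR BH-adjusted p = 4.64e-13). The thrombospondins THBS1 and THBS2 had log2 fold changes of 9.42 (SE 0.12) and 8.31 (SE 0.085). The fibrillar collagen chains were split. COL5A2 was at 13.02, 12.1 and 12.8 CPM in HEK-293T and 0.399, 0.329 and 0.432 CPM in HT-1080, a log2 fold change of -5.02 (SE 0.12, edgeR BH-adjusted p = 1.43e-10), while its partner chain COL5A1 was higher in HT-1080, with a log2 fold change of 2.63 (SE 0.073). COL3A1 held 3 counts in HT-1080 and was higher in HEK-293T, a ratio of 46.8 (counting interval 16.00 to 227). The matrix glycoprotein FBLN1 had a log2 fold change of -4.44 (SE 0.077). COL1A1 was at 12.5, 12.8 and 11.6 CPM and 7.696, 7.999 and 9.24 CPM, a log2 fold change of -0.56 (SE 0.081, edgeR BH-adjusted p = 9.65e-05). The collagen-binding proteoglycan LUM was at 0 in HT-1080 and 1.53, 1.68 and 1.82 CPM in HEK-293T.

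The plasminogen and metalloproteinase list, 18 of 20 tested, had 15 genes at least 2-fold higher in HT-1080 and 3 in HEK-293T, with a median of 3.49. Urokinase (PLAU), which activates plasminogen, was at 1.01, 1.098 and 0.835 CPM in HEK-293T against 3083, 3142 and 3094 CPM in HT-1080, a log2 fold change of 11.63 (SE 0.096, edgeR BH-adjusted p = 4.91e-13). MMP14, a membrane-bound collagenase, was at 2.65, 2.61 and 2.25 CPM against 1664, 1656 and 1629 CPM, with a log2 fold change of 9.37 (SE 0.079, edgeR BH-adjusted p = 5.6e-13). ADAMTS1, a secreted protease that cleaves proteoglycans, was the reverse, at 91.9, 93.96 and 91.6 CPM in HEK-293T and 0.1595, 0.1096 and 0.1798 CPM in HT-1080, with a log2 fold change of -9.26 (SE 0.098, edgeR BH-adjusted p = 1.1e-12). The metalloproteinase inhibitor TIMP3 was also higher in HEK-293T, with a log2 fold change of -2.53 (SE 0.073).

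Among integrin subunits, the receptors that bind cells to matrix, 17 of 18 were tested, 12 were at least 2-fold higher in HT-1080 and 3 in HEK-293T. The laminin-binding subunit ITGA3 was at 6.26, 6.09 and 5.73 CPM in HEK-293T against 1299, 1199 and 1254 CPM in HT-1080, a log2 fold change of 7.70 (SE 0.068, edgeR BH-adjusted p = 6.05e-13). The collagen-binding subunit ITGA2 was at 20.8, 21.4 and 21.4 CPM against 1366, 998 and 1355 CPM, with a log2 fold change of 5.87 (SE 0.13, edgeR BH-adjusted p = 7.05e-11). ITGB5 had a log2 fold change of 4.82 (SE 0.050) and ITGA11 5.09 (SE 0.17). The 3 subunits higher in HEK-293T were ITGA7 with -3.70 (SE 0.12), ITGA8 with -3.08 (SE 0.15), and ITGA9, which was at 0 in HT-1080 and 2.25, 2.402 and 2.29 CPM in HEK-293T.

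Genes induced by RAS-ERK signalling, all 25 tested, had 20 members at least 2-fold higher in HT-1080 and 1 in HEK-293T, with a median of 4.82. FOSL1, a subunit of the transcription factor AP-1, was at 0.476, 0.624 and 0.471 CPM in HEK-293T against 572, 545 and 585 CPM in HT-1080, a log2 fold change of 10.08 (SE 0.092, edgeR BH-adjusted p = 7.23e-13). PHLDA1 was at 1.62, 1.84 and 1.71 CPM against 952, 892 and 952 CPM, with a log2 fold change of 9.08 (SE 0.074, edgeR BH-adjusted p = 4.85e-13). The feedback inhibitor SPRY4 and the ETS factor ETV4 had log2 fold changes of 8.65 (SE 0.096) and 7.38 (SE 0.075). Cyclin D1 (CCND1) was at 43.7, 45.6 and 44.5 CPM against 1970, 1843 and 1922 CPM, with a log2 fold change of 5.42 (SE 0.055, edgeR BH-adjusted p = 9.55e-13). Another feedback inhibitor, SPRY1, went the other way, at 10.6, 10.8 and 10.5 CPM in HEK-293T and 0.1595, 0.0365 and 0.144 CPM in HT-1080, with a log2 fold change of -6.55 (SE 0.18, edgeR BH-adjusted p = 3.81e-10). Members of 1 family of inhibitors were thus on opposite sides.

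YAP and TEAD are the transcriptional arm of the Hippo pathway, which responds to cell contact and tension. Of their 16 listed target genes, all tested, 15 were at least 2-fold higher in HT-1080 and 0 in HEK-293T, with a median of 3.55. CCN2, a matricellular protein, was at 1.81, 1.95 and 1.72 CPM in HEK-293T against 81.8, 84.7 and 89.02 CPM in HT-1080, a log2 fold change of 5.54 (SE 0.066, edgeR BH-adjusted p = 1.81e-12). ANKRD1 was at 0.312, 0.292 and 0.281 CPM against 23.3, 25.02 and 21.7 CPM, with a log2 fold change of 6.30 (SE 0.098, edgeR BH-adjusted p = 7.55e-12). The receptor tyrosine kinase AXL, also on the mesenchymal list, was at 0.271, 0.324 and 0.266 CPM against 709, 652 and 693 CPM, with a log2 fold change of 11.21 (SE 0.086, edgeR BH-adjusted p = 4.85e-13). The remaining gene, DLC1, had a log2 fold change of -0.28 (SE 0.079, edgeR BH-adjusted p = 0.00674), and an edgeR BH-adjusted p = 0.218 with a spread shared over 12 libraries.

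Promoter windows of RefSeq (GRCh38.p14, 250 bases before to 50 after the start) were searched on both strands for the AP-1 letters TGANTCA. N is any base, so the search is looser than one for TGACTCA or TGAGTCA, and the ANKRD1 match below is TGATTCA. A window was at hand for 11247 of 13847 tested protein-coding genes (81.2%), but for only 76.9% of those at least 4-fold higher in HT-1080 and 76.1% of those at least 4-fold higher in HEK-293T, so a comparison of the sets as wholes, and of their GC content, is void, and what follows describes only the windows at hand. Among the windows at hand, TGANTCA stood in 10.5% of 1352 for HT-1080, in 4.4% of 1611 for HEK-293T, in 4.7% of those of all tested protein-coding genes and in 7.7% of all 26246 windows outside X and Y. The TEAD letters GGAATG stood in 14.3%, 10.6%, 10.8% and 14.0% of the same windows. Other letters differed too: those of the GC box, a further promoter element, stood in 58.4%, 66.9%, 69.2% and 44.7%, in that order. Those of the TATA box were more frequent in the HT-1080 windows than in the HEK-293T windows. The AP-1 letters were thus not the only ones to differ, and a link to the RAS-ERK or YAP-TEAD lists was not tested. A match is a description of letters and not a bound site. These examples, from genes named here as at least 4-fold higher in HT-1080, show where the AP-1 letters (in capitals) lie upstream of the start:
AIM2 (chr1:159076908-159076928, - strand, first capital 155 bases upstream of the start): tgtggcaTGACTCAgatacaa
ANKRD1 (chr10:90921269-90921289, - strand, first capital 195 bases upstream of the start): ttcttccTGATTCAcatattc
MBNL2 (chr13:97141741-97141761, + strand, first capital 86 bases upstream of the start): cagagaaTGACTCAcattctc
TGANTCA also stood, as TGAATCA, in the window of PDGFRA, which was higher in HEK-293T.

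Secreted signals had the largest median of all lists, 6.57. Of 31 cytokines, chemokines and EGF receptor ligands 27 were tested, 23 were at least 2-fold higher in HT-1080 and 3 in HEK-293T. GDF15, a stress-induced member of the TGF-beta family, was at 0.0164, 0.0711 and 0.03797 CPM in HEK-293T against 608, 687 and 609.5 CPM in HT-1080, a log2 fold change of 13.83 (SE 0.15, edgeR BH-adjusted p = 1.2e-12). IL24, IL1A, CSF2 and CCL5 were at 0 in HEK-293T, and at least 1660-fold, 337-fold, 517-fold and 141-fold higher in HT-1080. The monocyte chemokine CCL2 held 1 count over the HEK-293T libraries and 22.01, 23.8 and 23.9 CPM in HT-1080, a ratio of 9180 (counting interval 1590 to 349000). The exceptions at 2-fold were BMP2, at 29.1, 29.7 and 27.8 CPM in HEK-293T against 10.6, 8.84 and 9.96 CPM in HT-1080 with a log2 fold change of -1.56 (SE 0.068, edgeR BH-adjusted p = 9.06e-09), TSLP with -2.42 (SE 0.24), and CXCL2, which was at 0 in HT-1080 and 0.172, 0.308 and 0.289 CPM in HEK-293T.

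Growth factor receptors divided between the lines, with 9 of 29 tested at least 2-fold higher in HT-1080 and 13 in HEK-293T. The EGF receptor (EGFR) was at 15.6, 17.5 and 16.4 CPM in HEK-293T against 386, 285 and 373 CPM in HT-1080, a log2 fold change of 4.40 (SE 0.12, edgeR BH-adjusted p = 2.62e-10). OSMR, the oncostatin M receptor, had a log2 fold change of 6.88 (SE 0.12) and the TGF-beta receptor TGFBR2 4.79 (SE 0.079). HEK-293T held more FGFR3, at 26.1, 26.4 and 24.6 CPM against 0.319, 0.584 and 0.288 CPM, with a log2 fold change of -6.01 (SE 0.14, edgeR BH-adjusted p = 8.15e-11). It also held more NOTCH3, at 22.4, 22.6 and 21.9 CPM against 0.239, 0.256 and 0.288 CPM, with a log2 fold change of -6.41 (SE 0.11, edgeR BH-adjusted p = 1.17e-11). The neuregulin receptor ERBB4 and the GDNF co-receptor GFRA1 each held 1 count in HT-1080, and were at 8.24, 8.87 and 8.095 CPM and 12.4, 13.02 and 12.8 CPM in HEK-293T, ratios of 690.0 (counting interval 121 to 26600) and 1047 (counting interval 184 to 40400).

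Antigen presentation, nucleic acid sensor and interferon-stimulated genes, all 36 tested, had 26 members at least 2-fold higher in HT-1080 and 1 in HEK-293T, with a median of 2.92. The DNA sensor AIM2 was at 0 in HEK-293T and 9.61, 10.2 and 9.93 CPM in HT-1080, at least 1260-fold higher. The immunoproteasome subunit PSMB8 was at 0.0984, 0.0553 and 0.0532 CPM against 21.1, 24.5 and 20.6 CPM, a log2 fold change of 8.30 (SE 0.15, edgeR BH-adjusted p = 2.26e-11). OAS1 and OAS2, which sense double-stranded RNA, were at 0.008201, 0.0158 and 0.00759 CPM and at 0 in HEK-293T, and at 2.91, 2.78 and 3.02 CPM and 1.64, 1.497 and 1.55 CPM in HT-1080. IRF7, a factor that drives interferon genes, was the 1 member at least 2-fold higher in HEK-293T, at 0.467, 0.474 and 0.395 CPM against 0. HLA-C was at 101, 102 and 101 CPM in HEK-293T and 69.1, 70.4 and 64.3 CPM in HT-1080, with a log2 fold change of -0.57 (SE 0.046, edgeR BH-adjusted p = 1.02e-06), and an edgeR BH-adjusted p = 0.0682 with a spread shared over 12 libraries. HLA genes share reads, so that value is uncertain.

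Neither line had a full epithelial programme. Of 28 epithelial genes 11 were below the filter, 12 of the 17 tested were at least 2-fold higher in HEK-293T and 5 in HT-1080, with a median of -4.12. E-cadherin (CDH1) was at 2.001, 2.05 and 2.14 CPM in HEK-293T and 0 in HT-1080, at least 55.3-fold higher. EPCAM was at 0.582, 0.648 and 0.714 CPM in HEK-293T and held 1 count in HT-1080, a ratio of 54.05 (counting interval 9.33 to 2050). The protease inhibitor SPINT2 was at 25.9, 24.5 and 26.7 CPM in HEK-293T and held 2 counts in HT-1080, a ratio of 1072 (counting interval 286 to 8520). ESRP1 and GRHL2, which define epithelial splicing and transcription, were below the filter in both lines. Keratins went the other way. KRT8 was at 5.32, 5.45 and 4.99 CPM in HEK-293T against 418, 479.8 and 429.5 CPM in HT-1080, a log2 fold change of 6.40 (SE 0.076, edgeR BH-adjusted p = 1.82e-12). Its partner KRT18 was at 40.99, 42.2 and 41.99 CPM against 358, 413 and 364 CPM, with a log2 fold change of 3.18 (SE 0.062, edgeR BH-adjusted p = 3.14e-11). KRT7 was at 0 in HEK-293T and 23.9, 32.3 and 25.9 CPM in HT-1080, at least 3470-fold higher.

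The kidney label of HEK-293T matched only some kidney genes. Of 28 listed genes 11 were below the filter, among them the tubule genes UMOD, AQP2, SLC22A6 and CDH16, each at 0 counts in HEK-293T. Of the 17 tested, 7 were at least 2-fold higher in HEK-293T and 5 in HT-1080. SALL1, a factor of the developing kidney, was at 38.7, 40.7 and 40.98 CPM against 22.1, 19.5 and 22.6 CPM, with a log2 fold change of -0.91 (SE 0.061, edgeR BH-adjusted p = 2.63e-07). The endocytic receptor LRP2 was at 26.4, 26.9 and 26.5 CPM in HEK-293T and held 3 counts in HT-1080, a ratio of 732 (counting interval 244 to 3450). PAX2 was low, at 1.33, 1.22 and 1.15 CPM against 0.638, 0.475 and 0.1798 CPM, with a log2 fold change of -1.53 (SE 0.29, edgeR BH-adjusted p = 0.000731). Several developmental kidney factors were higher in the fibrosarcoma line. FOXD1, a factor of kidney stroma, was at 15.2, 14.7 and 14.97 CPM in HEK-293T against 181, 201 and 190.4 CPM in HT-1080, with a log2 fold change of 3.67 (SE 0.053, edgeR BH-adjusted p = 4.91e-12). LHX1 and WT1 had log2 fold changes of 2.06 (SE 0.087) and 0.80 (SE 0.080), and PAX8 held 3 counts in HEK-293T against 1.51, 0.986 and 1.22 CPM in HT-1080, a ratio of 159 (counting interval 53.8 to 763). Of 8 adrenal and steroid synthesis genes 6 were below the filter, and 7 were below 1 CPM in both lines. The 2 tested were both at least 2-fold higher in HT-1080, 1 of them at least 4-fold. The electron carrier FDX1 had a log2 fold change of 1.27 (SE 0.068).

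Neuronal genes were split within gene families. Of 27 listed genes 22 were tested, 12 were at least 2-fold higher in HEK-293T and 6 in HT-1080. Their median was -2.80, and -2.07 with genes at 0 in a line set to their bound. Medium neurofilament (NEFM) was at 229.6, 248 and 231 CPM in HEK-293T and held 1 count in HT-1080, a ratio of 19710 (counting interval 3400 to 749000). Alpha-internexin (INA) was at 17.1, 17.6 and 16.9 CPM and also held 1 count in HT-1080, a ratio of 1292 (counting interval 247 to 54500). Light neurofilament (NEFL) instead was at 60.05, 63.4 and 60.5 CPM in HEK-293T against 121, 121 and 117 CPM in HT-1080, a log2 fold change of 0.97 (SE 0.042, edgeR BH-adjusted p = 9.56e-09). The RNA-binding protein ELAVL2 was higher in HEK-293T, with a log2 fold change of -7.34 (SE 0.14). Neuron-specific enolase (ENO2) was at 18.7, 17.8 and 17.8 CPM against 205, 213 and 199 CPM, with a log2 fold change of 3.51 (SE 0.049, edgeR BH-adjusted p = 4.08e-12), and the neuronal tubulin TUBB3 at 4.18, 4.53 and 4.599 CPM against 106, 109.5 and 102 CPM, with a log2 fold change of 4.57 (SE 0.058, edgeR BH-adjusted p = 2.51e-12). STMN2, ELAVL3 and ELAVL4 were at 0 in HT-1080 and below the filter. Of 20 markers of blood, endothelial, liver, pigment, muscle and islet cells, 17 were below the filter, and the summed level of the 20 was 2.14 to 2.21 CPM in HEK-293T and 0.584 to 0.863 CPM in HT-1080.

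**Figure D2:**
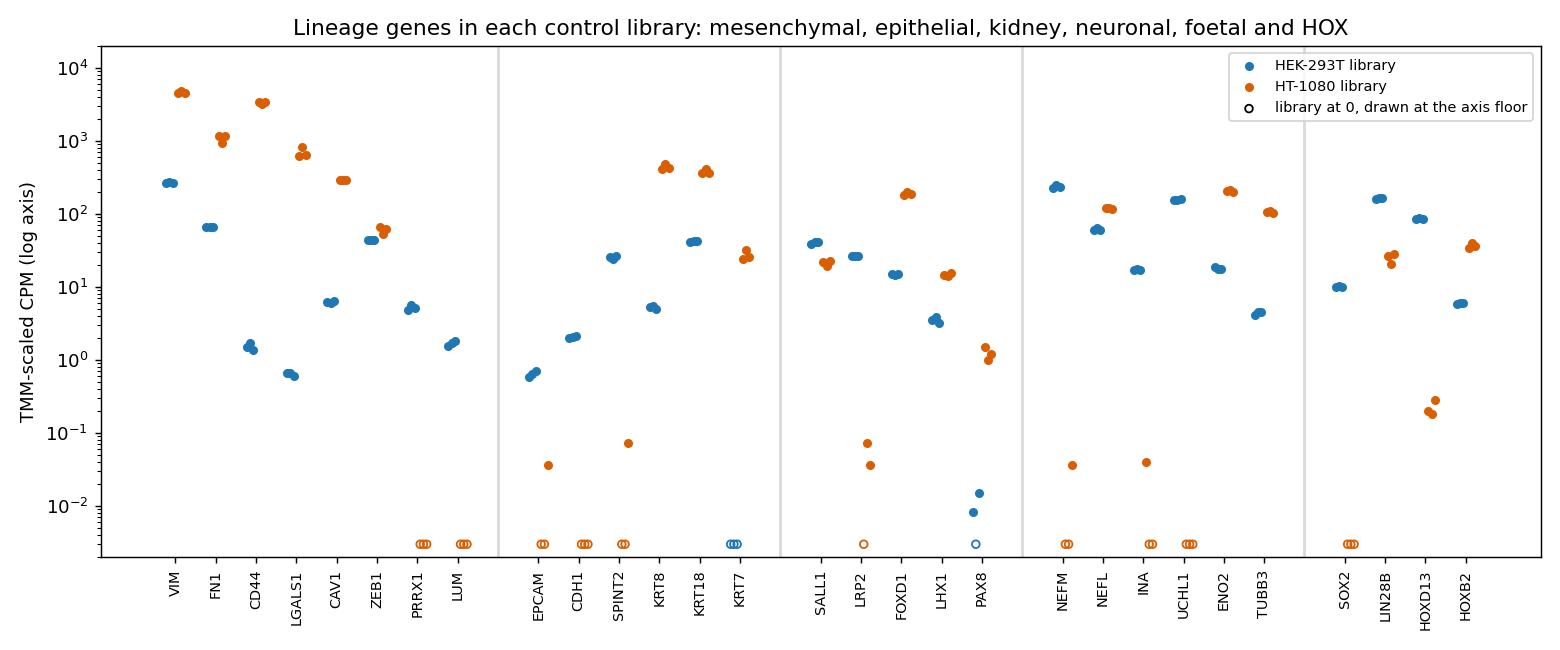
TMM-scaled CPM on a log axis in each of the 3 HEK-293T and 3 HT-1080 control libraries for mesenchymal, epithelial, kidney, neuronal, and foetal or HOX genes (panels from left to right). Open circles are libraries at 0. The libraries of a line lie close together, and NEFM and NEFL, or CDH1 and KRT8, differ between the lines in opposite directions.

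Foetal and stem cell genes were mixed, with 8 of 15 tested at least 2-fold higher in HEK-293T and 5 in HT-1080. SOX2, a pluripotency and neural factor, was at 9.93, 10.3 and 9.92 CPM in HEK-293T and 0 in HT-1080, at least 269-fold higher. LIN28B, which blocks let-7 maturation, was at 159, 165 and 165 CPM against 26.9, 20.9 and 28.4 CPM, a log2 fold change of -2.68 (SE 0.094, edgeR BH-adjusted p = 1.8e-09). The let-7 target HMGA2 was at 111, 116 and 113 CPM against 959, 839.8 and 965 CPM, with a log2 fold change of 3.02 (SE 0.064, edgeR BH-adjusted p = 5.41e-11). The related RNA-binding proteins IGF2BP1, IGF2BP2 and IGF2BP3 had a log2 fold change of -1.63 (SE 0.069), 1.88 (SE 0.054) and 1.18 (SE 0.056). The telomerase subunit TERT was at 2.38, 2.43 and 2.103 CPM in HEK-293T against 21.3, 21.8 and 21.01 CPM in HT-1080, with a log2 fold change of 3.21 (SE 0.072, edgeR BH-adjusted p = 7.84e-11).

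HOX genes encode the factors that set position along the body axis, and are arranged in clusters from anterior to posterior. Of 39 listed 38 were tested, 20 were at least 2-fold higher in HEK-293T and 5 in HT-1080, with a median of -1.21. HOXD13, a posterior gene, was at 85.8, 86.7 and 83.97 CPM in HEK-293T against 0.199, 0.183 and 0.288 CPM in HT-1080, a log2 fold change of -8.56 (SE 0.097, edgeR BH-adjusted p = 1.48e-12). HOXA11 was at 29.6, 29.7 and 27.9 CPM in HEK-293T and held 1 count in HT-1080, a ratio of 2187 (counting interval 419 to 92100). HOXD3 and HOXD4 were at 0 in HT-1080 and at 2.52, 2.78 and 2.97 CPM and 2.94, 3.13 and 3.42 CPM in HEK-293T. The 5 genes at least 2-fold higher in HT-1080 were HOXA4, HOXB2, HOXB4, HOXC5 and HOXC9. HOXB2 was at 5.79, 5.97 and 6.07 CPM against 33.9, 39.8 and 36.1 CPM, with a log2 fold change of 2.62 (SE 0.067, edgeR BH-adjusted p = 1.9e-10), and HOXB4 and HOXA4 had log2 fold changes of 2.07 (SE 0.068) and 1.496 (SE 0.068).

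p53 target genes, all 25 tested, had 18 members at least 2-fold higher in HT-1080 and 1 in HEK-293T, with a median of 1.60. The CDK inhibitor CDKN1A was at 19.7, 19.3 and 19.6 CPM in HEK-293T against 327, 336 and 329 CPM in HT-1080, a log2 fold change of 4.08 (SE 0.044, edgeR BH-adjusted p = 1.1e-12). PHLDA3 and PLK3 had log2 fold changes of 4.18 (SE 0.078) and 4.16 (SE 0.056). SPATA18, which acts in mitochondrial quality control, was at 5.72, 5.62 and 5.54 CPM in HEK-293T and held 2 counts in HT-1080, a ratio of 212 (counting interval 62.5 to 1860). CCNG1 was at 330.4, 334 and 333 CPM against 175, 179 and 179 CPM, with a log2 fold change of -0.90 (SE 0.039, edgeR BH-adjusted p = 8.97e-09).

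Among 33 cell cycle inhibitors and RB-E2F genes, all tested, 13 were at least 2-fold higher in HEK-293T and 5 in HT-1080. Both neighbouring CDK inhibitor genes CDKN2A and CDKN2B were at 0 in every HT-1080 library. In HEK-293T they were at 24.4, 25.5 and 26.2 CPM and 15.2, 15.2 and 14.3 CPM, at least 679-fold and 398-fold higher. Their neighbour on chromosome 9, MTAP, an enzyme of methionine salvage chosen after its values were seen, had a mean of 72.8 CPM ± 1.60 (SD, n = 3) in HEK-293T and 0.336 CPM ± 0.164 (SD, n = 3) in HT-1080, a log2 fold change of -7.75. DMRTA1, on the far side, had 0.917 CPM ± 0.097 (SD, n = 3) in HEK-293T and 4.94 CPM ± 0.413 (SD, n = 3) in HT-1080. Farther out on that side ELAVL2, a neuronal RNA-binding protein, had 20.4 CPM ± 0.065 (SD, n = 3) in HEK-293T and 0.125 CPM ± 0.056 (SD, n = 3) in HT-1080, a log2 fold change of -7.34. On the side of MTAP the interferon gene IFNE was higher in HT-1080, at 2.73 CPM ± 0.703 (SD, n = 3) against 0.119 CPM ± 0.044 (SD, n = 3) in HEK-293T, a log2 fold change of 4.51. The antisense RNA gene CDKN2B-AS1, also picked after its values were seen, held a mean of at least 100 counts in each line. Its main transcript differed, with ENST00000652420.1 at a mean of 65.6% of its counts in HEK-293T and 0% in HT-1080. ENST00000643286.1 held 2.91% and 42.3%. DNA copy number was not measured. The S-phase factor E2F2 was at 52.6, 52.6 and 52.3 CPM against 8.34, 7.78 and 8.27 CPM, with a log2 fold change of -2.69 (SE 0.052, edgeR BH-adjusted p = 2.79e-11). RB1 and E2F7 were higher in HT-1080, with a log2 fold change of 1.34 (SE 0.067) and 2.07 (SE 0.082).

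Of 26 listed regulators of alternative splicing 24 were tested, 8 were at least 2-fold higher in HEK-293T and 2 in HT-1080, with a median of -0.51. The neuronal regulator NOVA1 was at 15.4, 14.99 and 15.1 CPM in HEK-293T against 0.199, 0.183 and 0.108 CPM in HT-1080, a log2 fold change of -6.54 (SE 0.14, edgeR BH-adjusted p = 4.95e-11). RBM20, a regulator of titin splicing in muscle, had a log2 fold change of -4.08 (SE 0.083), NOVA2 had a log2 fold change of -4.24 (SE 0.20) and the epithelial regulator ESRP2 -4.495 (SE 0.29). The muscleblind proteins MBNL1 and MBNL2 were the 2 members at least 2-fold higher in HT-1080, with log2 fold changes of 2.13 (SE 0.076) and 3.03 (SE 0.080). HNRNPH1 itself, the target of the series' other siRNA, was at 1009, 1014 and 1030 CPM in HEK-293T and 691, 666 and 672 CPM in HT-1080, with a log2 fold change of -0.59 (SE 0.042, edgeR BH-adjusted p = 4.09e-07). PTBP1, a repressor of neuronal exons, differed little, with a log2 fold change of 0.19 (SE 0.045, edgeR BH-adjusted p = 0.00326), an edgeR BH-adjusted p = 0.0883 with a spread shared over 12 libraries, and a sign that turned to -0.07 under library size alone.

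Genes whose level depends on the kind of RNA library also differed between the lines. Of 23 tested genes that differ between kinds of library, 12 were at least 2-fold higher in HT-1080 and 0 in HEK-293T. The signal recognition particle RNA RN7SL1 was at 2.98, 2.33 and 4.43 CPM in HEK-293T and 64.9, 81.2 and 55.1 CPM in HT-1080, with a log2 fold change of 4.36 (SE 0.21, edgeR BH-adjusted p = 2.18e-08), although it shares reads with RN7SL2. The histone gene H2AC6 was at 0.935, 0.648 and 0.843 CPM against 8.77, 10.4 and 8.88 CPM, with a log2 fold change of 3.53 (SE 0.14, edgeR BH-adjusted p = 4.38e-09). The part of this difference in the results above was not tested.

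Differences were unequal along the genome. The median log2 fold change per chromosome ran from -0.64 on chromosome 22 (417 genes) to 0.45 on chromosome 13 (342 genes). In the order of protein-coding genes, 13 runs of 4 or more neighbours were each at least 4-fold higher in HT-1080, and 13 such runs in HEK-293T. The examples named here were chosen after their values were seen. The longest, of 7 genes on chromosome 13, held IRS2, the collagen IV pair COL4A1 and COL4A2, RAB20, NAXD, CARS2 and ING1. The keratins KRT80, KRT7, KRT86, KRT81, KRT83 and KRT85 formed a run of 6 on chromosome 12, and CAV2, CAV1 and the receptor gene MET lay in a run of 5 on chromosome 7. In HEK-293T the longest was a run of 6 zinc finger genes on chromosome 19, from ZNF570 to ZNF607. Neighbouring families share sequence, so single values within them are uncertain.

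The line differences were also present in libraries that the control fit did not use. Of the 5048 genes at least 4-fold apart with siNegative, 3977 (78.8%) were called and at least 4-fold apart in the same direction in the 6 siHNRNPH1 libraries, and 25 had the opposite sign. Of the 5048, 4746 passed the filter in that fit, and the others could not be called there. Without replicate 1 of HEK-293T siHNRNPH1, which stood apart from its group, the counts were 3963 (78.5%) and 15, with 4566 genes tested. These libraries share the line, the table and the depth with the controls. CD44 had log2 fold changes of 11.07 with siNegative and 9.56 with siHNRNPH1. TAGLN had -2.25 and -0.21, and HOXC5 2.66 and 0.76, so these 2 did not repeat at 4-fold.

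**Figure D3:**
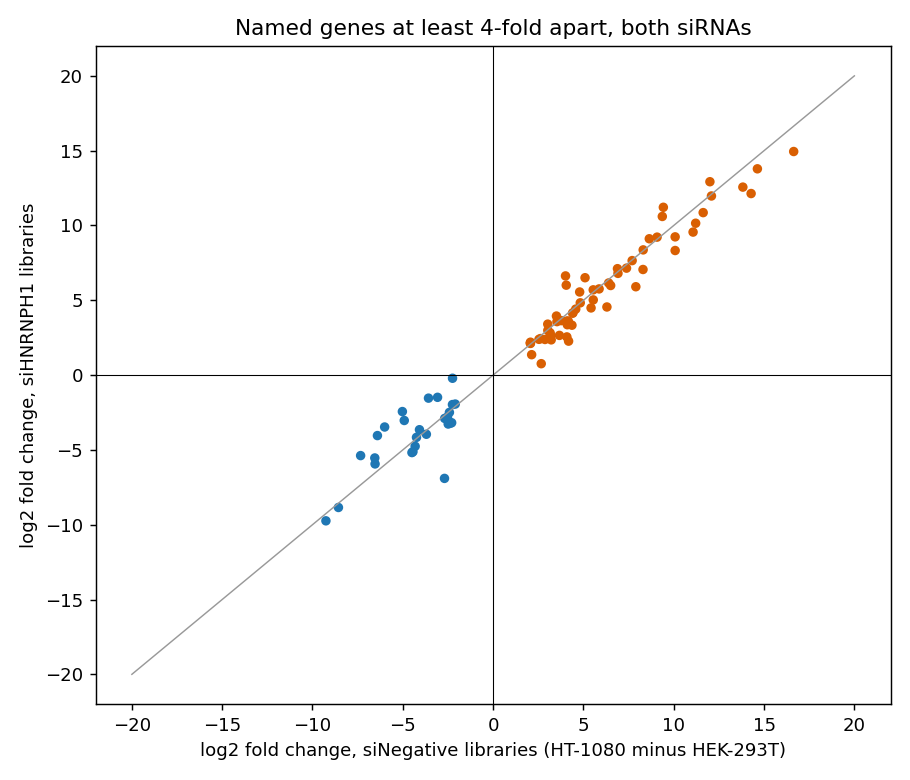
Log2 fold change between the lines (HT-1080 minus HEK-293T) in the siNegative libraries (x axis) and in the siHNRNPH1 libraries (y axis) for 87 named genes at least 4-fold apart in the controls with more than 3 counts in each line; the grey line marks equal values. All 87 had the same sign, and 80 were at least 4-fold apart in both.

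Transcript use was compared as the share of a gene's expected counts that each listed transcript held. Shares are not corrected for transcript length, so a transcript is compared only with itself. Among 9861 genes with a mean of at least 100 counts in each line and several transcripts, 827 (8.39%) had 1 transcript leading in all HEK-293T libraries and another leading in all HT-1080 libraries. Both leaders were called in the share test (limma) for 724 of them. The smaller of the shifts of the 2 leaders had a median of 25.1 percentage points over the 827 genes. It was at least 50 points for 115 genes and under 10 points for 136. The lowest value was -4.59, where 1 leader moved the other way. With HEK-293T thinned to the depth of HT-1080 the count was 764 of 9531 (8.02%). With leaders taken from mean shares alone it was 1589, and with each leader ahead by at least 10 percentage points it was 616. Of 29745 transcript shares tested, 14623 (49.2%) differed with a limma BH-adjusted p under 0.05. limma diffSplice, which tested 75362 transcripts, called 27881 (37%). It was not the main test, because in earlier work on these data it had called mostly unchanged genes in simulations. For each gene, a total shift was taken as the percentage of its counts that would have to move between its transcripts to match another library. Averaged over library pairs, its median over genes was 12.2% between the lines, 3.20% between HEK-293T replicates and 6.36% between HT-1080 replicates. Of the 827 genes, 313 (37.8%) were also at least 2-fold apart in their summed count, against 34.2% of all 9861. In the siHNRNPH1 libraries, 539 of the 827 (65.2%) had the same pair of leaders, and 588 did when the outlying HEK-293T knockdown library was left out. Leaders there were taken from mean shares alone, a looser rule than the one that gave the 827. Genes with a mean under 100 counts in a line there were counted as not the same.

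The largest exchanges were nearly complete, and the following genes lead by the smaller of the shifts of the 2 leaders. As with gene levels, the line and the deposited table cannot be told apart in these shares. SP6, a zinc finger factor, had all its counts in ENST00000342234.3 in each HEK-293T library and all in ENST00000536300.2 in each HT-1080 library, at means of 119 and 122 counts per library. NADK, the kinase that makes NADP, was at nearly equal summed levels in the lines, with a log2 fold change of 0.10. Its transcript ENST00000341991.7 held 87.6, 84.9 and 85.3% in HEK-293T and 0% in HT-1080, and ENST00000341426.9 held 2.92, 4.57 and 4.704% and 89.4, 90.7 and 87.1%, with limma BH-adjusted p-values of 9.77e-06 and 1.32e-05. UBFD1, a ubiquitin-domain protein, had 87.7, 88.1 and 86.1% of its counts in ENST00000567212.5 in HEK-293T and 0% in HT-1080, where ENST00000395878.8 held 95.3, 94.6 and 92.4%. In TMEM250, a membrane protein gene, ENST00000561457.2 held 95.7, 95.5 and 98.3% in HEK-293T and 1.71, 2.75 and 1.67% in HT-1080. For NACC2, a transcriptional repressor, ENST00000277554.4 held 2.101, 1.86 and 0% in HEK-293T and 87.4, 84.7 and 84.2% in HT-1080. Libraries of the lines did not overlap in any of these shares, which follows from how the genes were chosen and adds nothing to it. The 827 genes also included broadly expressed ones. The HEK-293T leader of the actin gene ACTB, ENST00000473257.3, held a mean of 60.5% there against 0.18% for HT-1080. For PABPC1, RPL8 and RPL13 the HEK-293T leader went from 56.2, 54.1 and 54.3% to 1.7, 3.6 and 7.1%. In RPL38 it moved less, from 39.06 to 32.95%. The part of a difference between tables or libraries in any of these exchanges was not tested.

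The other genes with the largest exchanges were TPGS1, HSPA1A, UBBP4, PSMB10 and COMMD10. In HSPA1A, the inducible heat shock protein 70, ENST00000375651.7 held 1.92, 0.517 and 2.91% of the counts in HEK-293T and 88.4, 90.1 and 94.9% in HT-1080. HSPA1A and its near copy HSPA1B share reads, so these shares are uncertain, and UBBP4 is a pseudogene of a ubiquitin gene with the same limit. In PSMB10, an immunoproteasome subunit, ENST00000358514.9 held 0.5004, 3.14 and 1.11% and 82.5, 81.7 and 86.8%. COMMD10 rested on less even libraries: ENST00000632434.1 held 96.7, 97.6 and 97.05% in HEK-293T and 9.04, 38.9 and 0.0792% in HT-1080, where replicate 2 stood apart. Most of these genes also differed in summed level, with log2 fold changes of 3.56 for TPGS1, 3.71 for HSPA1A, 4.51 for UBBP4 and 2.12 for PSMB10.

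**Figure D4:**
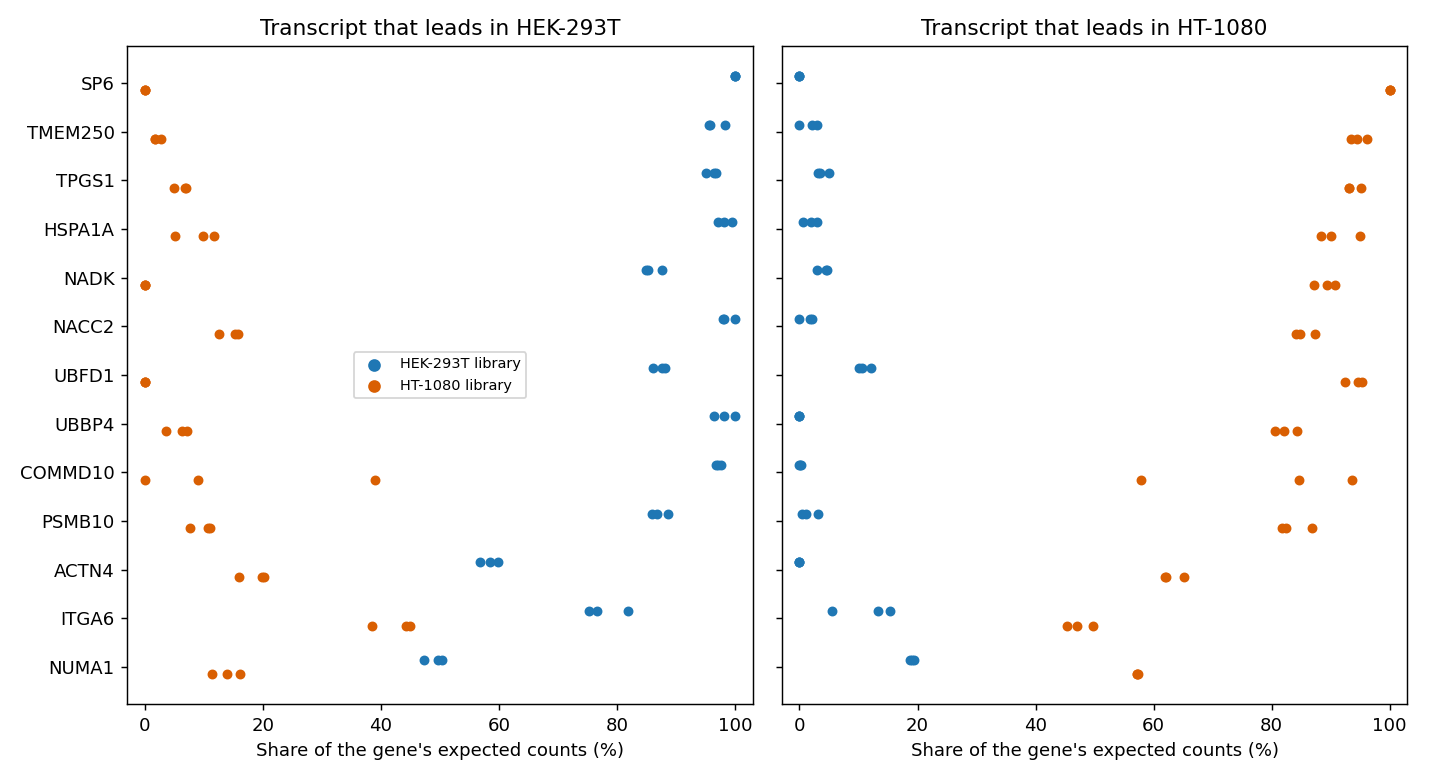
Share of the gene's expected counts, in percent, held by the transcript that leads in HEK-293T (left) and the one that leads in HT-1080 (right), 1 point per control library. The upper 10 genes have the largest exchanges and the lower 3 are from the list of genes with epithelial or mesenchymal splice variants. In COMMD10, 1 HT-1080 library lies apart from the other two.

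Among genes known for epithelial or mesenchymal splice variants, all 29 were tested at gene level, with 14 at least 2-fold higher in HT-1080 and 3 in HEK-293T. In 3 of 28 assessed (10.7%) the main transcript differed, close to the 8.39% of all genes. ACTN4, an actin crosslinker, had ENST00000252699.7 at 0% in HEK-293T and 65.1, 62.1 and 61.9% in HT-1080, and ENST00000697712.1 at 56.8, 59.8 and 58.5% and 15.9, 20.2 and 19.8%, with limma BH-adjusted p-values of 9.79e-06 and 0.000105. The laminin receptor subunit ITGA6 had ENST00000409080.6 at 75.2, 81.8 and 76.5% in HEK-293T and 44.2, 38.5 and 44.9% in HT-1080. NUMA1, a spindle protein, had ENST00000393695.8 at 19.4, 18.7 and 19.1% and 57.2, 57.4 and 57.1%. Which exons separate these transcripts was not analysed here.

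Of the genes the series names, the translation initiation scaffold EIF4G1 also differed in its main transcript. ENST00000411531.5 held a mean of 33.4% of its counts in HEK-293T and 5.78% in HT-1080, and ENST00000346169.7 held 12.8% and 32.9%, with limma BH-adjusted p-values of 0.000107 and 0.000616. Its summed level had a log2 fold change of 0.42 (SE 0.048). The mitotic kinase AURKA kept the same leader, ENST00000395915.8, at 54.4% and 43.6% (limma BH-adjusted p = 0.0118), with a log2 fold change of 0.56 (SE 0.043) in its summed level. For HNRNPH1 no transcript led in every library.

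The long-read control pools, 1 per line, were set beside these levels as a count of deposited models on the strand and span of a gene. This was done for 375 genes, which were all list members and named genes with a known span and strand, whether or not reported here. A model counts once whatever its abundance, and there is no replicate. The HEK-293T pool held 64705 models and the HT-1080 pool 72186. Among the 375, 97 were at least 4-fold higher in HT-1080 with at least 20 CPM there. Of these, 94 had more models in the HT-1080 pool, and 49 had 0 in the HEK-293T pool. The same share over all genes at least 4-fold apart was not counted. Of 32 genes at least 4-fold higher in HEK-293T with at least 20 CPM there, 22 had more models in the HEK-293T pool. In the HT-1080 pool 22 of them had 0, and in the HEK-293T pool 8 had 0. ITGA6 had 6 models in HEK-293T and 47 in HT-1080, and CDKN2A had 0 in both.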

How the data were processed

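The authors deposited 1 table per line of RSEM expected counts per transcript (251295 transcripts of 61906 genes), and the submitters' processing notes name RSEM and GRCh38.p13. The aligner, annotation release, trimming and strandedness are not given in the sources used here. Transcripts of a gene were added up and the sums rounded. The 19776 genes past edgeR's filterByExpr were scaled by TMM and tested with edgeR 4.0.16 (quasi-likelihood, robust, two-sided) on the 6 control libraries, with BH adjustment. The 21250 genes that no reference symbol placed on a chromosome and the 2355 on X or Y stayed in the fit where they passed the filter, and were left out of counts and names. Standard errors came from the F statistic. Transcript shares of at least 5% were tested with limma 3.58.1 on their arcsine square roots. With 3 libraries a group, an exact permutation test could not go below p = 0.1, so none was run. The deposited long-read files list transcript models with no abundance, and gene spans and promoters came from RefSeq (GRCh38.p14), a later patch of the same primary assembly.

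Named genes were, per list and direction, up to 4 members with the largest called fold change and at least 1 CPM in the higher line, members at 0 in a line, the 10 largest differences per direction at 20 CPM or more, the 10 largest exchanges of main transcript, the listed splice-variant genes whose main transcript differs, and HNRNPH1, EIF4G1 and AURKA. A few further genes of the lists are named where they define a cell type. Some genes that these rules name are not reported here, and they stay in the counts. The 21 gene lists, the cell type markers and the rules were chosen with earlier results of these data known. No library repeated another of its line: for such pairs, chi-square divided by its degrees of freedom was 1.74 to 16.2. On simulated counts of 19222 genes, the gene test recovered 81 of 100 genes changed 2-fold and 98 of 100 changed 4-fold, with 13 unchanged genes among 192 calls. Only these few genes were changed there, whereas 88.3% of tested genes were called in the data. The simulation therefore does not give the error among those calls. On simulated shares of 28373 transcripts, 150 of 161 leaders shifted by at least 20 percentage points were called, and 21 of 342 calls were on unchanged genes. These shares were drawn with normal noise on the arcsine scale, which the limma test assumes, so other kinds of noise were not examined.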

Additional observations from a re-analysis of the deposited data

How the results depend on the processing

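RLE scaling, library size alone, no filter, a filter at 1 CPM, DESeq2, HEK-293T thinned to the depth of HT-1080, 12 libraries with a shared spread and X and Y left out before the fit gave 12013 to 16108 called genes and 6066 to 10187 called and at least 2-fold, within 1.5 times the counts given. In these fits no gene called at 2-fold was called in the opposite direction. Library size alone turned PTBP1 to -0.068. A shared spread ended the calls of DLC1, FGF2, HLA-C, PTBP1, PTBP3 and ZEB1. Genes with a main transcript that differs numbered 466 with a gene mean of at least 1000 counts, where fewer genes were assessed, and 1589 with leaders from mean shares. Called transcript shares numbered 9076 at that mean and 27881 with limma diffSplice, which tested more transcripts. Leaving out 1 library gave 13552 to 15222 called genes, 7849 to 8898 at 2-fold, 893 to 973 genes whose main transcript differs and 10765 to 14765 transcript shares.

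The replicate numbers did not pair the libraries: deviations of same-numbered libraries correlated at -0.03, -0.10 and -0.02. With the replicate number as a block, 14272 genes were called, 8453 of them at 2-fold, and 11776 transcript shares. Depth limits genes near the floor of 3 counts, which is higher in HT-1080.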
